A study of Mus musculus with 26 samples.

Results

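RNA 5-hydroxymethylcytosine (5hmC) was mapped in mouse cells by hMeRIP-seq, in which fragmented RNA was pulled down with an anti-5hmC antibody and sequenced, and a peak is a place where the pulled-down (IP) library exceeded its own input library. Among the peaks were 7856 whose summit lay in an intron of a protein-coding gene and at most 200 bp from the nearest exon, here called splice-side peaks, out of 56538 peaks in 13 IP libraries (13.9%). A summit was taken as the midpoint of a 200-bp interval, and exons were those of the coding transcripts of GENCODE M1 on the genome build mm9. Each peak was assigned to the nearer end of its intron on the gene strand, which gave 4305 peaks on the 5′ splice site side and 3551 on the 3′ splice site side. The intervals carry no strand of their own, so transcription from the opposite strand cannot be told apart from that of the gene. Overlapping intervals of one side were merged into 2136 regions on the 5′ side and 1945 on the 3′ side, 4081 in all, and 311 of the 3′ regions overlapped a 5′ region across a short intron or a short exon.

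The 5 groups were WT ESC (wild-type embryonic stem cells, 3 libraries), TKO ESC (an established stem cell line that lacks the Tet1, Tet2 and Tet3 enzymes, 3 libraries), WT EB (embryoid bodies that wild-type cells formed over 4 days without leukaemia inhibitory factor, 3 libraries), Tet2-KI ESC (a CRISPR knock-in that tags Tet2 at its own locus, 2 libraries) and Tet2deltaRBD-KI ESC (the tagged Tet2 with its RNA-binding domain removed, 2 libraries). The stem cells were grown on gelatin with serum and leukaemia inhibitory factor. TKO ESC and the knock-in cells are edited lines, so the line and the genotype cannot be told apart. Peak lists do not measure expression, so neither genotype nor cell type could be checked from them, and where a group has fewer peaks, less 5hmC per transcript and fewer transcripts cannot be told apart. The study describes its sequencing replicates as biological or as independent experiments, the labels give only their numbers, and p-values measure the spread between these libraries. Replicate 1 of the wild-type, TKO and EB groups carries another batch prefix (1608 or 1610) than replicates 2 and 3 (1703) and had the shortest list of its group, and values within the 1703 batch are given beside the pooled number, shares, fold enrichment and overall share of regions lost to TKO ESC or to WT EB. The lists ran from 498 to 10383 peaks, the sequencing depth behind them is unknown, and no peak means only that none passed the peak caller's threshold.

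An intron is removed from a pre-mRNA by the spliceosome, which recognises the 5′ splice site, where the intron usually begins with GT, and the 3′ splice site, where it ends with AG after a pyrimidine-rich tract. Purine-rich stretches in the adjoining exons, GAA repeats among them, are known binding sites of SR proteins and help to define exons. TET enzymes oxidise 5-methylcytosine to 5hmC, in DNA and also in RNA.

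The following splice sites show the kinds of sequence beside which the peaks lay. Exon bases are in capitals and intron bases in lower case, 5′ to 3′ on the gene strand of mm9, with up to 60 exon bases and up to 140 intron bases of each site. The first set holds sites with a peak in all 13 libraries: the exon before intron 11 of Ssb (chr2:69708578-69708734, plus strand), the exon before intron 15 of Smc1a (chrX:148472181-148472380, plus strand), the exon after intron 6 of Hnrnpa3 (chr2:75500814-75500961, plus strand), the exon after intron 16 of Eif3a (chr19:60844736-60844935, minus strand) and the exon after intron 8 of Sfpq (chr4:126704561-126704700, plus strand). Introns are counted between the merged coding exons of a gene.
Ssb, 5′ side: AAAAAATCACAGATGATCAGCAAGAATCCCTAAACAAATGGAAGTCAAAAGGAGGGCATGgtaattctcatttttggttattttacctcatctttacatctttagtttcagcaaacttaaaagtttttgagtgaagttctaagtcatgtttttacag
Smc1a, 5′ side: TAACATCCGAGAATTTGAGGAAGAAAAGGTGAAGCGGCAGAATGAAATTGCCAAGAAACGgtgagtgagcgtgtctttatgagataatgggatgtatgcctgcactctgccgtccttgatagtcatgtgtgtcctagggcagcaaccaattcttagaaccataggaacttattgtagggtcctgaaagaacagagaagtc
Hnrnpa3, 3′ side: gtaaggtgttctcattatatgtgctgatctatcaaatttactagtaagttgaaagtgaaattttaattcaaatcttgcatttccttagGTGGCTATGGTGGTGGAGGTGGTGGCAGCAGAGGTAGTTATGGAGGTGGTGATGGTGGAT
Eif3a, 3′ side: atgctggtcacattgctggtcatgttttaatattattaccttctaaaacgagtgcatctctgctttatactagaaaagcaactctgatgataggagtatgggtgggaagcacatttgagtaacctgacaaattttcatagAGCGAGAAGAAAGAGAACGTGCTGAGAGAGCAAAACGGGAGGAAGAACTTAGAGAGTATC
Sfpq, 3′ side: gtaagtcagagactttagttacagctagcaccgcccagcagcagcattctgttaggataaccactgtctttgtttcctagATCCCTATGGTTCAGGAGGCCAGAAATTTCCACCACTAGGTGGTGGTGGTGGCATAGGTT

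The introns of Ssb, Hnrnpa3 and Sfpq shown here are 97, 88 and 80 bp long and are printed whole. The Eif3a exon holds GAAGAA 2 times and the Smc1a exon 1 time, whereas the exon bases printed for Ssb, Hnrnpa3 and Sfpq hold none. A second set comes from regions with a peak in every WT ESC library and in no TKO ESC or WT EB library: intron 1 of Anp32e (chr3:95733514-95733713, plus strand), intron 1 of BC030336 (chr7:127821325-127821524, plus strand) and intron 3 of Rbm5 (chr9:107667922-107668121, minus strand).
Anp32e, 5′ side: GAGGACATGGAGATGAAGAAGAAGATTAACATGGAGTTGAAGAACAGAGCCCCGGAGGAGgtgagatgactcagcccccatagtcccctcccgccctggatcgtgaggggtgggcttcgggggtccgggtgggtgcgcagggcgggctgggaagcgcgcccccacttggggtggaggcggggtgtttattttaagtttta
BC030336, 5′ side: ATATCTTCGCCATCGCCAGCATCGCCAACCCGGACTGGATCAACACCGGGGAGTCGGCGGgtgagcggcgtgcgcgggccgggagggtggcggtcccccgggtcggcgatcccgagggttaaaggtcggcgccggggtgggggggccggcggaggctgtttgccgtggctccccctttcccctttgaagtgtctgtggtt
Rbm5, 3′ side: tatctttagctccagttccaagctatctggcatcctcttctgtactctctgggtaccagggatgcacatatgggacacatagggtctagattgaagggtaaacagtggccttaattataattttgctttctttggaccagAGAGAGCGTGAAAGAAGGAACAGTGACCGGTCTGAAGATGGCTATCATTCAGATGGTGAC
The BC030336 window has a GC content of 70.0% and the Anp32e window one of 60.5%, with GAAGAA 3 times in the Anp32e exon, while the Rbm5 window has a GC content of 45%.

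The summits crowded against the exon. The median distance from the summit to the exon was 37 bp (quartiles 20 and 63) on the 5′ side and 31 bp (quartiles 16 and 49) on the 3′ side. In all, 71.1% of the peaks lay within 50 bp of the exon and 6992 (89.0%) within 100 bp, so that their 200-bp interval reached into the exon. Per Mb of intron at that distance, the 5′ side held 298 peaks over the 13 libraries at 1 to 25 bp from the exon, 294 at 26 to 50 bp, 129 at 51 to 75 bp and 57.4 at 76 to 100 bp. The 3′ side held 297, 268, 100.2 and 33.2 peaks per Mb in these bins. Farther in, the curve was flat, with 35.9 peaks per Mb between 500 and 1000 bp from a 5′ splice site and 30.5 at that distance from a 3′ splice site. Between 101 and 200 bp the 3′ side fell below that level, with 11.8 to 20.6 peaks per Mb, and the 5′ side did not, with 37.1 to 44.8. On the exon side, the bins next to the splice site held 241 (5′) and 254 (3′) peaks per Mb, below the intron bins they adjoin. Exon bases were counted only to the middle of an exon, while summits in first and last exons were also counted beyond it. Exon densities are therefore overstated with distance, and those beyond 75 bp are not given. From position alone, a fragment of unspliced RNA and an exonic fragment whose interval was drawn on across the exon edge in genome coordinates cannot be told apart. At the limit of the definition, 74 peaks lay in the last 10 bp inside it and 92 intronic peaks in the 10 bp beyond it.

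**Figure D1:**
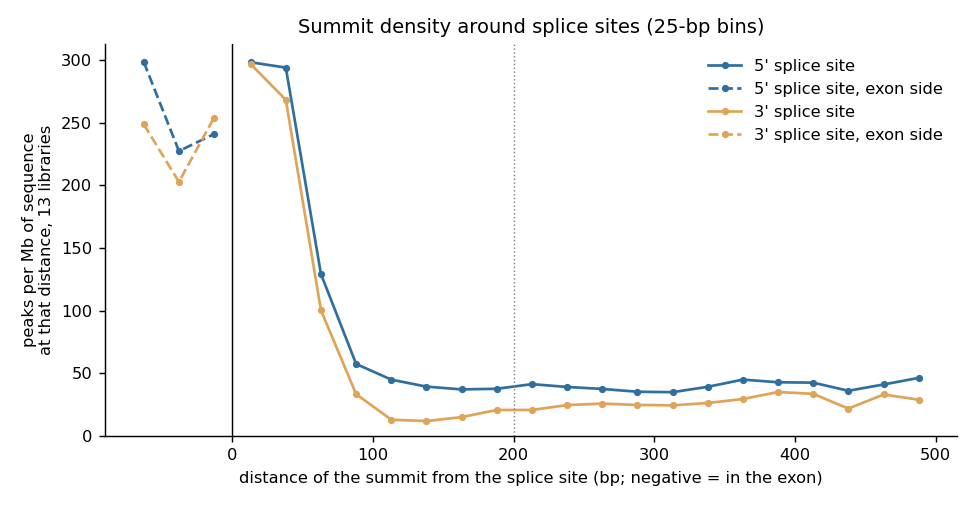
Number of peak summits of all 13 libraries per Mb of sequence (y axis) against the distance from the nearest 5′ or 3′ splice site (x axis, bp, 25-bp bins; negative values lie in the exon, the dotted line marks 200 bp). Density was 298 and 297 peaks per Mb in the intron bins next to the exon and had fallen to 57.4 and 33.2 by 76 to 100 bp. On the exon side, bases were counted only to the middle of an exon, so densities there are overstated with distance.

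Intron within 200 bp of an exon makes up 7.41% of the intronic bases of coding genes (67.8 Mb, against 847 Mb of deep intron, which lies farther from any exon). Within every library the density of splice-side peaks exceeded that of deep intronic peaks. The lowest ratio was 2.85 in WT ESC replicate 1 and the highest 13.7 in WT EB replicate 3, with a mean log2 ratio of 2.28 ± 0.73 (SD, n = 13 libraries). In a two-sided exact sign-flip permutation test over the 13 libraries p was 0.000244, the smallest value this test can give, and 0.00061 after Benjamini-Hochberg adjustment over the 5 within-library comparisons. The ratio was 2.85 to 2.90 in the WT ESC libraries, 5.46 to 5.86 in TKO ESC and 5.30 to 13.7 in WT EB. It was 3.27 and 3.56 in Tet2-KI ESC and 3.58 and 5.77 in Tet2deltaRBD-KI ESC.

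The number of splice-side peaks was 362, 759 and 653 in WT ESC replicates 1 to 3, 123, 815 and 603 in TKO ESC, and 73, 416 and 930 in WT EB. Tet2-KI ESC held 1285 and 745 and Tet2deltaRBD-KI ESC 620 and 472. WT EB replicate 3 had the second longest set although its whole list of 3532 peaks was shorter than that of any WT ESC library. The 5′ side outnumbered the 3′ side in 11 of 13 libraries, and the exceptions, TKO ESC replicate 2 (402 against 413) and WT EB replicate 1 (36 against 37), were close to even. On average the 5′ side was 1.21-fold larger (log2 ratio 0.28 ± 0.23, SD, n = 13, exact sign-flip permutation p = 0.00122, adjusted p = 0.00203). Within 100 bp of the exon the log2 ratio was 0.14 (exact sign-flip permutation p = 0.00952), as 14.6% of the 5′ but 6.65% of the 3′ side peaks lay farther out. As a ratio, the excess of the 5′ side was largest in the Tet2deltaRBD-KI ESC libraries, with 366 against 254 and 302 against 170 peaks.

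**Figure D2:**
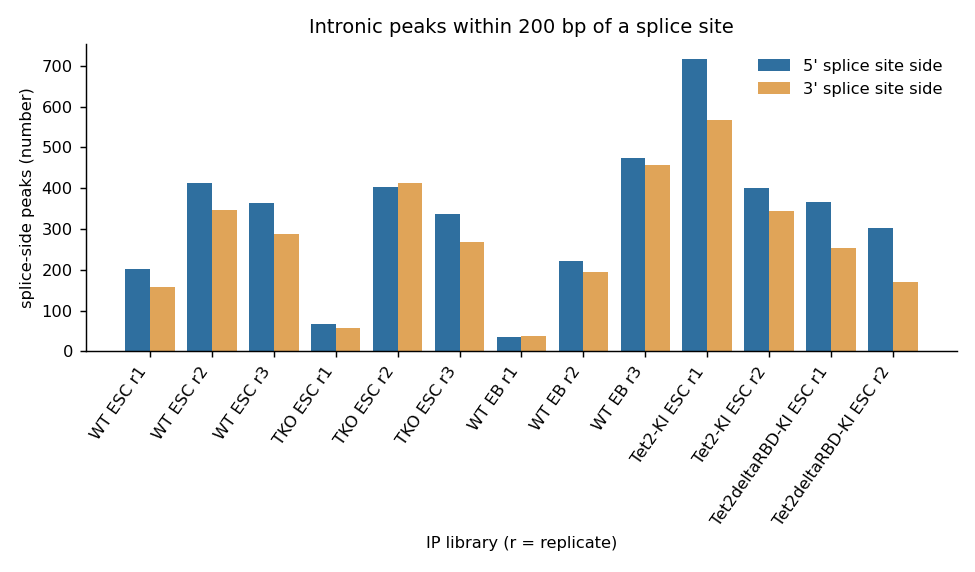
Number of splice-side peaks (y axis) in each of the 13 IP libraries (x axis), with 1 bar for the 5′ and 1 for the 3′ splice site side. The 5′ bar is the taller one in 11 of 13 libraries, and replicate 1 of TKO ESC and WT EB has the fewest peaks.

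Fold enrichment, the ratio of IP to input at a summit, is given for 9 libraries, all but the knock-in ones. The median over the splice-side peaks of a library ran from 5.43 to 7.64, and that over deep intronic peaks from 5.43 to 7.28. Splice-side peaks were the higher in 6 of 9 libraries, by 0.06 ± 0.12 on the log2 scale (SD, n = 9, exact sign-flip permutation p = 0.18, adjusted p = 0.18), a difference within the spread between libraries. In WT EB replicate 3 the medians were 7.64 and 6.27, and in WT ESC replicate 1 they were 6.00 and 6.53, the other way round. The 5′ side exceeded the 3′ side in 7 of 9 libraries, by 0.06 ± 0.06 on the log2 scale (exact sign-flip permutation p = 0.0391, adjusted p = 0.0488). This difference, about 4% of the fold enrichment (a ratio of 1.04), missed the threshold when WT ESC replicate 1, TKO ESC replicate 3 or any 1 of the WT EB libraries was left out, with values of 0.0486 to 0.0535 on the log2 scale and an exact permutation p of 0.0781 in each of those cases.

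**Figure D3:**
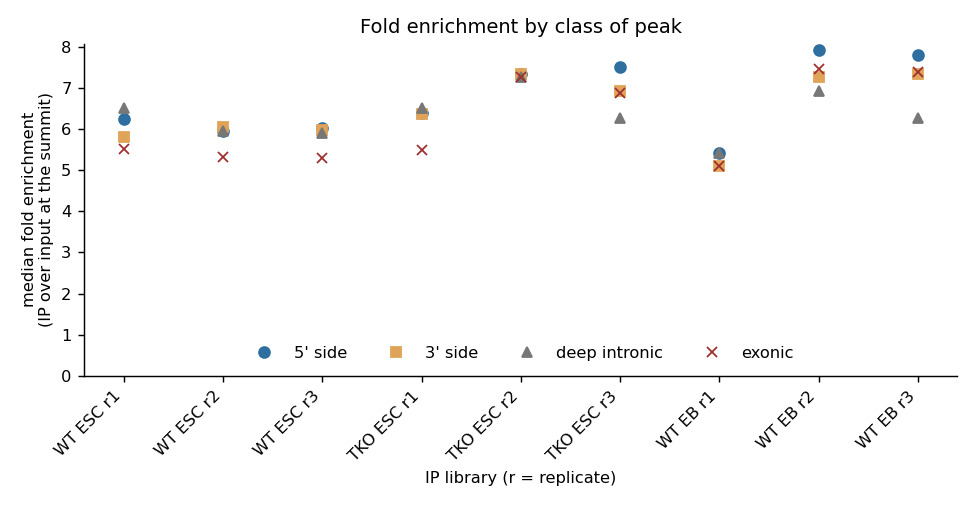
Median fold enrichment of IP over input at the summit (y axis, starting at 0) in the 9 libraries that give it (x axis), for 5′ side, 3′ side, deep intronic and exonic peaks. The classes lie close together in most libraries, between 5.11 and 7.94.

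The splice sites carried the usual dinucleotides. Of the 7856 peaks, 7691 had an annotated exon junction as their nearest edge, and 98.7% of the 2162 5′ splice sites with a peak began with GT or GC, against 97.8% of the other 5′ splice sites of the same genes. Of the 1971 3′ splice sites with a peak, 95.5% ended with AG, against 96.3% of the other sites. Adjoining exons were coding at 85.6% of the 5′ and 92.3% of the 3′ sites with a peak. Median intron length was 1278 bp at 5′ sites with a peak and 1134 bp at the others. Exons of transcripts annotated as retaining an intron covered 466 of the summits (5.93%), against 0.61% of deep intronic summits, and 33 intervals overlapped a gene of a small RNA.

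The exon bases beside the peaks were rich in purines. Over windows of 60 exon-side and 140 intron-side bases, the exon side of 5′ splice sites with a peak averaged 61.4% purine (SD 10.8 over sites), against 54.0% (SD 8.99) at the other 5′ splice sites of the same genes and 52.7% at all 195279 5′ splice sites of coding genes. At 3′ splice sites the averages were 60.7% (SD 9.57), 53.8% (SD 8.91) and 52.6%. Taken library by library, sites with a peak exceeded the other sites of the same genes in all 13 libraries, by 1.79 to 9.88 percentage points on the 5′ side and by 4.06 to 11.6 on the 3′ side. The lowest 5′ value came from Tet2deltaRBD-KI ESC replicate 2. GAAGAA stood in 21% of the 200-bp windows with a peak on the 5′ side, read on the gene strand, against 12.1% of the other windows of the same genes and 11% of all windows. On the 3′ side the shares were 22.3%, 12.7% and 11.5%. Library by library, windows with a peak held GAAGAA more often in 12 of 13 libraries on the 5′ side and in 13 of 13 on the 3′ side, and the exception was Tet2deltaRBD-KI ESC replicate 2, with 8.64% against 10.7%. GTAAGT, the start of an intron that pairs well with U1 RNA, was in 13.9% of 5′ windows with a peak and 16.1% of the others. Over the 200-bp peak intervals themselves, GAAGAA was in 24.7% on the 5′ side and 26.7% on the 3′ side. It was in 30.2% of exonic and 15.9% of deep intronic peaks, so it was not particular to splice-side peaks. Mean pyrimidine was 44.2%, 46.7%, 41.2% and 40.5% in this order, so splice-side intervals held fewer purines than those of both other classes. The shares of splice sites are descriptions, since splice sites of one gene share its base composition and its expression.

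Pyrimidines were fewer beside the peaks than at other splice sites, and more frequent than in deep intronic peaks. The intron side of the window averaged 47.7% pyrimidine at 5′ sites with a peak and 51.0% at the others, and 51.9% and 53.8% at 3′ sites, with the sites with a peak the lower in all 13 libraries on both sides. Of the UC-rich words searched, TTCTTC was in 6.98% of 5′ windows with a peak against 9.22% of the others, and CTCTCT in 6.57% against 8.99%. At 3′ sites TTCTTC was in 10.1% against 12.2%, and CTCTCT in 9.28% against 11.7%. Over the 200-bp interval of the peak itself, the mean pyrimidine share of a library ran from 42.6% to 46.4% for splice-side peaks and from 38.3% to 42.4% for deep intronic ones. The difference was 5.11 ± 1.68 percentage points (SD, n = 13), with splice-side peaks higher in 13 of 13 libraries (exact sign-flip permutation p = 0.000244, adjusted p = 0.00061). The intron side of all splice sites of coding genes, with or without a peak, averaged 50.5% (5′) and 53.7% (3′) pyrimidine. This test therefore cannot tell a trait of the peaks from their position at splice sites. Tandem repeats were in 3.48% of 5′ and 2.79% of 3′ side intervals and in 12.7% of deep intronic ones, and without the peaks that held them the difference was 5.32 percentage points.

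Part of the 5′ side lay at GC-rich starts of genes. Of the 5′ splice sites with a peak, 513 of 2162 (23.7%) belonged to intron 1 of their gene. The share was 4.97% of the other 5′ splice sites of the same genes and 9.95% of all 5′ splice sites of coding genes. On the 3′ side the shares were 12.3%, 5.80% and 9.95%, so the 3′ sites with a peak lay near the share of all sites. The other sites of the same genes are low by construction, since intron 1 sites with a peak are taken out of them. At the 5′ sites of intron 1 with a peak, the intron side had a GC content of 69.9% and GCGGCG was in 39.0% of windows, against 65.3% and 29.2% at the other 5′ sites of intron 1. At later introns the GC content of 5′ sites with a peak was 45.1%, close to the 44.9% of the others, and it was there that purines and GAAGAA stood out: 63.5% purine on the exon side against 54.1%, and GAAGAA in 25.8% of windows against 12.4%.

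The intron 1 share of 5′ side peaks differed widely between libraries. It was 34.5%, 17.7% and 21.1% in WT ESC replicates 1 to 3, 20.9%, 5.72% and 10.1% in TKO ESC, and 30.6%, 3.15% and 4.01% in WT EB. Tet2-KI ESC had 19.6% and 23.9% and Tet2deltaRBD-KI ESC 31.1% and 59.3%. Replicate 1 was the highest of each group of 3, so the pooled groups overlapped, and the WT ESC mean exceeded that of TKO ESC by 12.2 percentage points (exact permutation p = 0.2) and that of WT EB by 11.8 (p = 0.3 by the same exact test). Within the 1703 batch the WT ESC libraries lay above those of TKO ESC and WT EB. Tet2-KI ESC did not overlap Tet2deltaRBD-KI ESC, with a difference of -23.4 percentage points (exact permutation p = 0.333, the smallest value for 2 against 2 libraries). These tests were chosen after the values were seen, and the adjusted p over the 6 of them (intron 1 share and GC content, in 3 comparisons) was 0.333 for each.

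**Figure D4:**
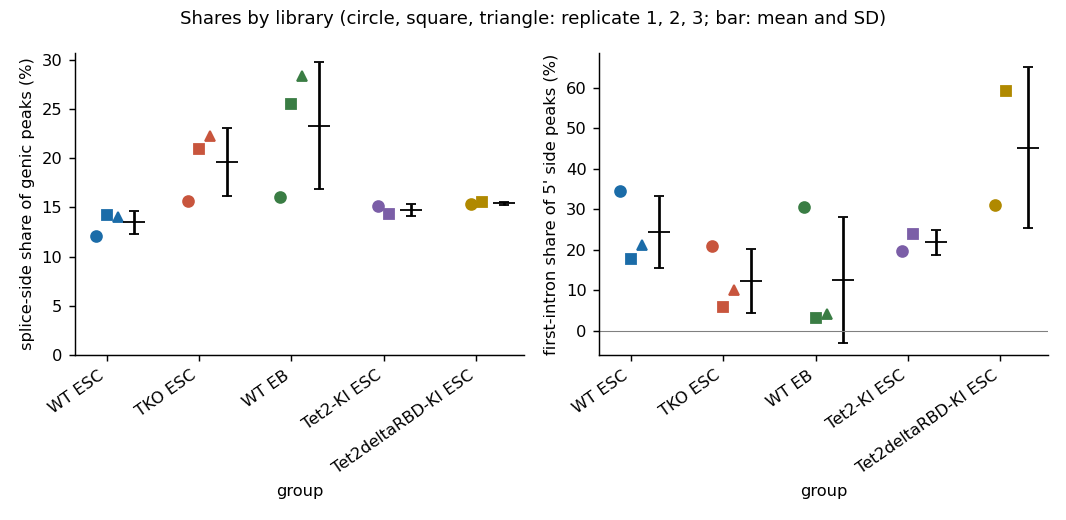
Left, splice-side peaks as a share of the peaks in coding genes (y axis, %), and right, peaks in intron 1 as a share of the 5′ side peaks (y axis, %), by group (x axis); points are libraries (circle, square and triangle for replicates 1, 2 and 3) and bars the mean and SD. On the left every TKO ESC and WT EB point lies above the WT ESC points of 12.1% to 14.3%, and on the right replicate 1 stands highest in each group of 3.

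Splice-side peaks were found in 2069 of the 19438 coding genes with an intron (10.6%), and in 29.5% of the 7005 coding genes with any peak. Most of these genes had 1 region (1354), 401 had at least 3, and 575 had peaks on both sides. Among the 8 genes with the most regions were Tpr (a nuclear pore protein, 21 regions at 16 of its 51 introns), Ktn1 (kinectin, a membrane anchor of kinesin, 20), Hnrnpm (a splicing regulator, 16), Smarca5 (the ATPase of ISWI chromatin remodellers, 15), Top1 (DNA topoisomerase 1, 14) and Npm1 (nucleophosmin, 13). They have from 12 introns (Npm1) to 51 (Tpr). Tpr had regions with a peak in at least 1 library in every group, 14 in WT ESC, 18 in TKO ESC, 20 in WT EB, 17 in Tet2-KI ESC and 9 in Tet2deltaRBD-KI ESC. Ktn1 had 8, 18, 17, 6 and 0 in this order, and Smarca5 1, 7, 14, 6 and 1. Npm1 and several hnRNP genes have processed copies elsewhere in the genome, with which reads of their exons could be shared.

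Genes of RNA processing with splice-side regions were counted without a test. Of the hnRNPs, the RNA-binding proteins that coat nascent transcripts, 18 of 26 genes with an intron (69.2%) had a region. Among SR proteins the count was 8 of 13 (61.5%), among snoRNA host genes 29 of 50 (58.0%), and among core spliceosome genes 31 of 56 (55.4%). The BAF chromatin remodelling complex had 12 of 27 (44.4%), polycomb repressive complex 2 5 of 11 (45.5%), DEAD/DEAH helicases 15 of 48 (31.3%), pluripotency factors 6 of 24 (25%), DNA methylation and demethylation enzymes 5 of 20 (25%) and CLK and SRPK kinases 1 of 7 (14.3%). The background was 10.6% of all coding genes with an intron, and since expression could not be read from these lists, its part in the difference was not tested.

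The depth of support differed between lists. A region with a peak in at least 7 libraries was found in 7 of the 26 hnRNP genes, with Hnrnpa3 and Hnrnpa2b1 (13 libraries each), Hnrnpm and Hnrnpu (11 each) in front. In the core spliceosome list 6 genes had such a region, led by Rbm25 and Srrm2 (12 libraries each) and Luc7l3 (10), and in the helicase list 5, led by Ddx10, Ddx3x and Dhx8 (12 each). Srsf11 and Tra2a (11 each) stood for the SR proteins, Ncl (13) and Hspa9 (11) for the snoRNA hosts, Smarcc1 (11), a core BAF subunit, for BAF and Dnmt1 (7), the maintenance DNA methyltransferase, for the methylation enzymes. These counts include libraries whose overlapping peak had its summit elsewhere. A summit in the intron was found in 11 of the 12 libraries at Dhx8, 10 of 12 at Rbm25, 7 of 11 at Smarcc1 and 5 of 12 at Ddx10, but in 3 of 12 at Ddx3x, 2 of 12 at Srrm2, 2 of 11 at Hnrnpm, at most 2 of 10 at Luc7l3 and 1 at Hnrnpu and at Tra2a. None of the polycomb, pluripotency or CLK and SRPK genes had a region with that many libraries: Suz12 and Jarid2 reached 3, Tcfcp2l1 4, and Pou5f1 1. Over all coding genes with an intron, 195 (1.00%) had a region with a peak in at least 7 libraries.

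Presence at a region counts any peak of a library that overlaps it, including one whose summit fell in the exon. By that count 1744 regions (42.7%) had a peak in 1 library, 445 (10.9%) in at least 7 and 14 in all 13. Over all 23367 regions of the series the shares were 53.6% in 1 library and 6.03% in at least 7. Replicated regions, with a peak in every library of a group, numbered 252 in WT ESC (in 148 genes), 101 in TKO ESC (53 genes), 33 in WT EB (21 genes), 739 in Tet2-KI ESC (417 genes) and 263 in Tet2deltaRBD-KI ESC (189 genes).

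The regions with a peak in all 13 libraries, in order of mean fold enrichment, began with Ssb, whose product, the La protein, binds the ends of RNA polymerase III transcripts. Its 97-bp intron 11 had a fold enrichment of 4.59, 16.6 and 20.9 in WT ESC replicates 1 to 3, 3.86, 44.3 and 20.5 in TKO ESC and 7.29, 27.9 and 39.9 in WT EB. Replicate 1 was the lowest in each of these groups. The range of TKO ESC covered those of WT ESC and WT EB, which overlapped each other in part. Within the 1703 batch the WT EB values of 27.9 and 39.9 exceeded the WT ESC values of 16.6 and 20.9, and TKO ESC overlapped both groups. The intron is so short that the 5′ and 3′ regions hold the same peaks, with a summit in the intron at the 5′ side in 5 libraries and at the 3′ side in 4.

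Smc1a, a subunit of the cohesin ring, had a peak at the 5′ splice site of intron 15 with 9.48, 6.55 and 12.2 in WT ESC, 10.1, 37.2 and 13 in TKO ESC and 4.18, 8.39 and 10.1 in WT EB. The value of 37.2 in TKO ESC replicate 2 stood apart, WT ESC overlapped both other groups, and every TKO ESC value exceeded every WT EB value. Sfpq, a paraspeckle protein that acts in splicing, had at the 3′ splice site of intron 8 values of 14.6, 8.75 and 7.88 in WT ESC, 10.3, 5.78 and 6.99 in TKO ESC and 3.94, 10.6 and 5.60 in WT EB, again with overlap.

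Hnrnpa3 had the same fold enrichments on both sides of its 81-bp exon 7, with 7.88, 6.99 and 11.4 in WT ESC, 8.14, 5.08 and 4.29 in TKO ESC and 4.42, 5.39 and 2.65 in WT EB. Every WT ESC value exceeded every WT EB value here, while WT ESC and TKO ESC overlapped at replicate 1. At Hnrnpa2b1, Ncl (nucleolin) and Eif3a (a subunit of translation initiation factor 3) the WT ESC means were lower than at the genes above, and the means of the 3 groups were 5.69 ± 0.414, 6.11 ± 0.816 and 7.07 ± 2.35 (SD, n = 3 each; WT ESC first, then TKO ESC, then WT EB) at the 5′ site of intron 5 of Hnrnpa2b1, 5.58 ± 0.811, 3.71 ± 0.253 and 4.45 ± 0.589 at that of intron 13 of Ncl, and 4.96 ± 1.23, 3.98 ± 1.37 and 3.87 ± 0.355 at that of intron 17 of Eif3a. At Ncl the values of 5.45, 4.84 and 6.45 in WT ESC all exceeded those of 3.81, 3.42 and 3.89 in TKO ESC, while at Hnrnpa2b1 and Eif3a these groups overlapped. At Eif3a the summit itself lay in the intron in 1 of the 13 libraries on either side and elsewhere in the other libraries, whose peaks overlapped the region.

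**Figure D5:**
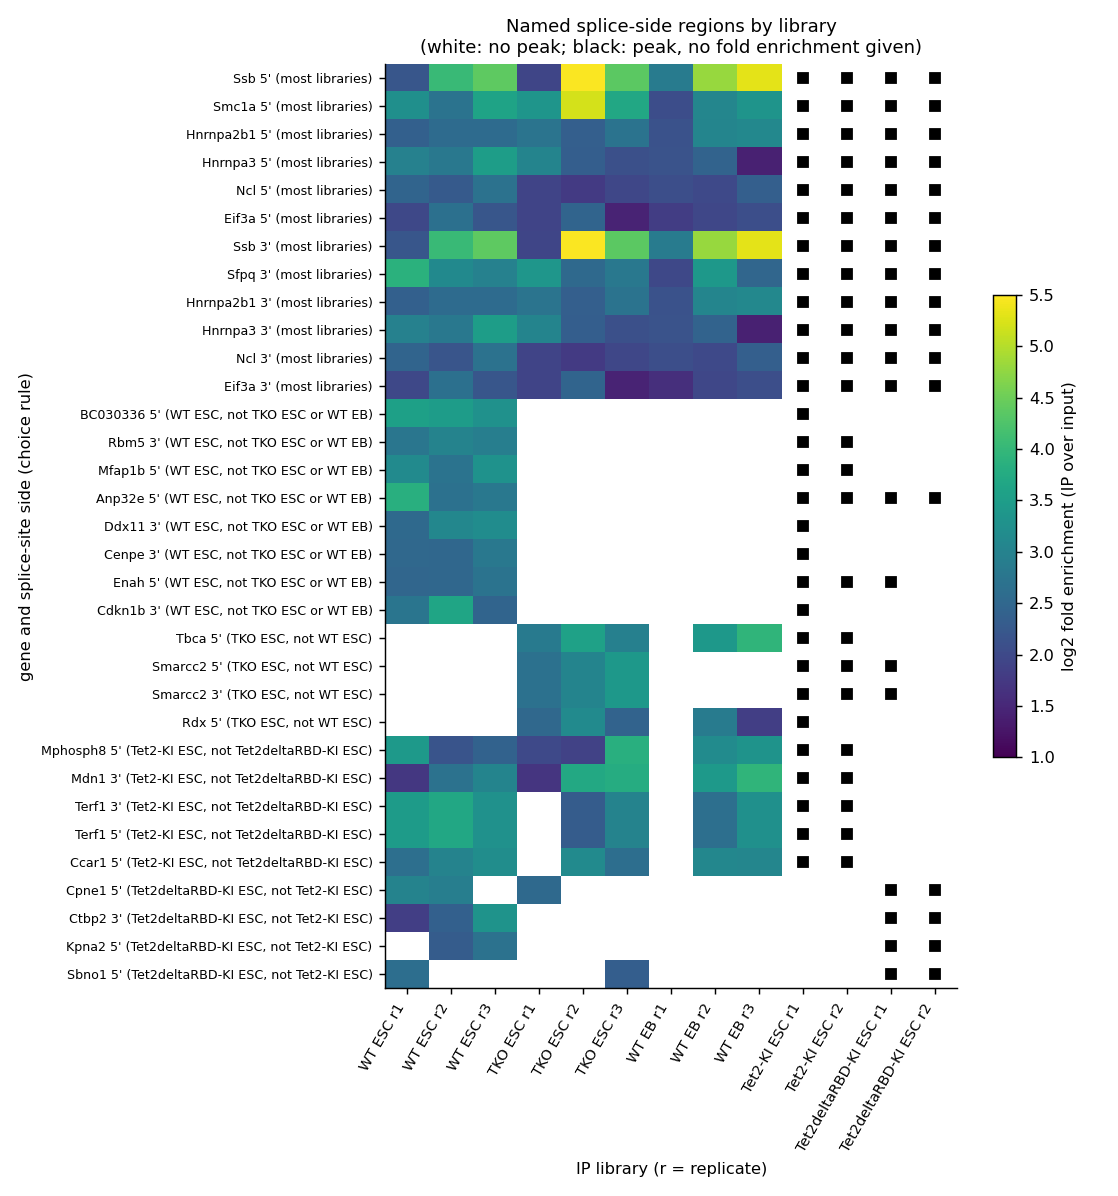
Splice-side regions chosen by rule (rows; gene, side and rule) in the 13 IP libraries (columns): colour gives the log2 fold enrichment of IP over input, black squares mark a peak in knock-in libraries, for which no fold enrichment was given, and white means no peak. The upper rows are filled in all 13 libraries, and the rows below them were picked for a group in which no peak was listed; regions picked for WT EB are not drawn.

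WT ESC and TKO ESC were compared to ask how many of these peaks depend on Tet enzymes. The number of splice-side peaks did not differ beyond the spread: the mean log2 number was 9.14 in WT ESC (SD 0.56) and 8.62 in TKO ESC (SD 1.47, 3 libraries each), a difference of 0.52 (two-sided exact permutation p = 0.7). Within the 1703 batch it was 0.01, with 759 and 653 against 815 and 603 peaks, and without TKO ESC replicate 1 alone it was -0.31. The share of coding-gene peaks that were splice-side was 13.5 ± 1.19% in WT ESC and 19.7 ± 3.47% in TKO ESC without overlap, a difference (WT ESC minus TKO ESC) of -6.17 percentage points (exact permutation p = 0.1, the smallest value for 3 against 3 libraries, and 0.275 adjusted over the 11 comparisons between groups), so the test could not pass a threshold of 0.05. In the 1703 batch the difference was -7.46 points. Deep intronic peaks numbered 1588, 3271 and 2821 in WT ESC and 265, 1865 and 1286 in TKO ESC. As a share of intronic peaks alone, a measure added after the values were seen, splice-side peaks made up 18.6% to 18.8% in WT ESC and 30.4% to 31.9% in TKO ESC. Median fold enrichment of splice-side peaks was 6.00 to 6.07 in WT ESC and 6.38, 7.35 and 7.16 in TKO ESC replicates 1 to 3, without overlap. The difference (WT ESC minus TKO ESC) was -0.20 on the log2 scale (exact permutation p = 0.1, adjusted p = 0.275) and -0.26 within the 1703 batch. Other classes were higher in TKO ESC too, with overlap. Exonic medians averaged 5.38 in WT ESC and 6.56 in TKO ESC, and deep intronic ones 6.14 and 6.69. The 5′ share was 55.5 ± 0.91% and 53.2 ± 3.39%, with overlap, a difference of 2.29 percentage points and of 2.63 in the batch, but of -0.36 with a distance limit of 100 bp and of 0.37 without TKO ESC replicate 2.

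Replicated WT ESC regions that lacked a peak in TKO ESC were counted at splice sites and over the whole series. Of the 252 splice-side regions with a peak in every WT ESC library, 37 (14.7%, 95% Clopper-Pearson interval 10.6 to 19.7, which covers counting error only) had none in any TKO ESC library, against 32.2% of the 1532 such regions of the whole series. Among those regions, by where most of their peaks lay and leaving out a few of no such class, the share was 14.2% of 113 splice-side regions (interval 8.32 to 22.0), 18.3% of 355 exonic ones (14.4 to 22.7), 33.2% of 611 deep intronic ones and 46.7% of 448 intergenic ones. Splice-side and exonic regions thus had overlapping intervals, and the higher share of the whole series came from the deep intronic and intergenic regions. The share was 15.8% on the 5′ side and 13.4% on the 3′ side. In the other direction, 5 of 101 regions of TKO ESC (4.95%) lacked a peak in WT ESC, against 1.73% of all regions. Splice-side regions were merged by side, so 1 place can count on both sides, while all regions were merged once. With splice-side regions merged from all peaks as well, 3 of 86 (3.49%) lacked a peak in WT ESC. TKO ESC replicate 1, with 123 splice-side peaks, limits what is replicated in TKO ESC. With the 1703 libraries alone the directions came out even: 125 of 534 regions of WT ESC (23.4%) had no peak in TKO ESC, against 44.3% of all regions, and 139 of 591 regions of TKO ESC (23.5%) had none in WT ESC, against 19.8% of all regions. At the 76 splice-side regions with a peak in all 6 libraries, fold enrichment was higher in WT ESC at 32 (42.1%, median log2 difference -0.07), and over all 283 such regions of the series at 151 (53.4%, median 0.05).

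Of the 252 replicated WT ESC regions, 30 (11.9%, interval 8.18 to 16.6) were without a peak in all TKO ESC and WT EB libraries, against 26.5% of all regions. They lay in 28 genes, 16 on the 5′ and 14 on the 3′ side. By the highest lowest fold enrichment, BC030336 (5′ side of intron 1) came first with 11.8, 11.2 and 9.71 in WT ESC replicates 1 to 3. Rbm5, a splicing regulator, followed at the 3′ side of intron 3 with 6.77, 8.09 and 7.55, and Mfap1b, which encodes a spliceosome-associated protein and has a close copy in Mfap1a that could share its reads, with 8.90, 6.57 and 9.75. Anp32e, a chaperone of the histone variant H2A.Z, had 14.3, 6.43 and 6.97 at intron 1 and also a peak in all 4 knock-in libraries. The others by this rule were Ddx11 (a DNA helicase, 3′ side of intron 4), Cenpe (a kinetochore motor, 3′ side of intron 34), Enah (an actin regulator, 5′ side of intron 15) and Cdkn1b (the cyclin-dependent kinase inhibitor p27, 3′ side of intron 1), each with values from 5.44 to 12.5. All 8 had a peak in at least 1 Tet2-KI ESC library, and 2 of them (Anp32e and Enah) in Tet2deltaRBD-KI ESC. The summit lay beside the named splice site in 2 of 5 libraries with a peak at Mfap1b and 2 of 4 at Ddx11 and at Cenpe. It did so in 3 of 5 at Rbm5, 3 of 4 at BC030336 and all libraries with a peak at Anp32e, Enah and Cdkn1b. All 8 regions were selected for these groups, so their values are a description.

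The 5 regions with a peak in every TKO ESC and no WT ESC library lay in 3 genes. Tbca, a tubulin folding cofactor, had 7.25, 11.9 and 7.79 in TKO ESC at the 5′ splice site of intron 2 and 10.6 and 15.3 in WT EB replicates 2 and 3. Smarcc2, a BAF subunit, had 6.38, 8.19 and 10.6 across its 82-bp intron 24. Rdx (radixin, a linker of membrane and actin) had 5.74, 8.87 and 5.39 at the 5′ splice site of intron 10. The summit lay beside the splice site in all 7 libraries with a peak at Tbca and 4 of 6 at Rdx. At Smarcc2 it did so in 2 of 6 on the 5′ side and 3 of 6 on the 3′ side.

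The comparison of WT ESC with WT EB asks how the peaks change with differentiation. The mean log2 number was 9.14 (SD 0.56) in WT ESC and 8.25 (SD 1.88) in WT EB, a difference of 0.89 (exact permutation p = 0.7), and 0.18 within the 1703 batch. Without WT EB replicate 1 it was -0.14, and without replicate 3 it was 1.69. Splice-side peaks made up 23.3 ± 6.47% of coding-gene peaks in WT EB, without overlap with WT ESC, and WT ESC minus WT EB came to -9.85 points (exact permutation p = 0.1, adjusted p = 0.275), or -12.8 points in the 1703 batch. Over intronic peaks alone the share was 29.8%, 47.2% and 52.2% in WT EB. Deep intronic peaks numbered 172, 465 and 850 in WT EB, below every WT ESC library. Exonic peaks numbered 209, 740 and 1488 in WT EB and 1017, 1263 and 1148 in WT ESC, with overlap. They, too, made up a larger part of coding-gene peaks in WT EB, so the higher share was not particular to splice-side peaks. The 5′ share was 51.2 ± 2.04%, 4.25 points below WT ESC and again without overlap (exact permutation p = 0.1, adjusted p = 0.275), and 2.99 points below it in the 1703 batch. This separation was lost with a distance limit of 100 bp (1.48 points, exact permutation p = 0.6) and with the stronger peaks of each list alone, those above its median fold enrichment (2.35 points, exact permutation p = 0.6). The median fold enrichment of 5.43, 7.61 and 7.64 in WT EB overlapped that of WT ESC, with a difference of -0.17 on the log2 scale (exact permutation p = 0.4). The overlap came from WT EB replicate 1: the difference was -0.34 without it (exact permutation p = 0.1) and -0.33 in the 1703 batch, but -0.09 without WT EB replicate 2 or 3. Exonic medians averaged 5.38 in WT ESC and 6.66 in WT EB, and deep intronic ones 6.14 and 6.21.

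Of the 252 replicated WT ESC regions, 68 (27.0%, interval 21.6 to 32.9) had no peak in any WT EB library, against 54.9% of all regions. Split as above, the share was 30.1% of the splice-side regions (interval 21.8 to 39.4), 27.3% of the exonic ones (22.8 to 32.3), 62.4% of the deep intronic ones and 73.0% of the intergenic ones, so splice-side regions did not stand apart from exonic ones. The reverse share was 3 of 33 (9.09%), against 2.61% of all regions, and 2 of 26 (7.69%) with splice-side regions merged from all peaks. In the 1703 batch the shares were 164 of 534 (30.7%), against 63.9% of all regions, and 173 of 614 (28.2%), against 23.7% of all regions. At the 24 splice-side regions with a peak in all 6 libraries, fold enrichment was higher in WT ESC at 13 (54.2%, median log2 difference 0.15), and over all 94 such regions at 69 (73.4%, median 0.30). WT EB replicate 1, with 73 splice-side peaks, limits what is replicated in WT EB. The comparisons with TKO ESC and WT EB share the WT ESC libraries. Of the 3 regions with a peak in every WT EB and no WT ESC library, 2 lay in Snx2, a sorting nexin of the retromer, on both sides of the 81-bp exon 13 (4.48, 7.21 and 5.20 in WT EB). The summit lay in the intron in 2 of 5 libraries with a peak at the 3′ splice site and 3 of 5 at the 5′ splice site.

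Tet2-KI ESC and Tet2deltaRBD-KI ESC were compared to ask what the RNA-binding domain of Tet2 contributes. Splice-side peaks numbered 1285 and 745 against 620 and 472, without overlap, a log2 difference of 0.85 (exact permutation p = 0.333, the smallest value for 2 against 2, and 0.458 adjusted), which was 0.46 without Tet2-KI ESC replicate 1 and 1.25 without its replicate 2. Their share of coding-gene peaks was 15.2% and 14.3% against 15.3% and 15.5%, a difference of -0.66 percentage points (exact permutation p = 0.333), which was -0.23 without Tet2-KI ESC replicate 2, -1.08 without its replicate 1 and 0.53 with a distance limit of 100 bp. The 5′ share was 55.9% and 53.8% in Tet2-KI ESC and 59.0% and 64.0% in Tet2deltaRBD-KI ESC, without overlap and with a difference (Tet2-KI ESC minus Tet2deltaRBD-KI ESC) of -6.66 points (exact permutation p = 0.333), which was -9.13 without Tet2deltaRBD-KI ESC replicate 1 and -4.18 without its replicate 2. The intron 1 share given above moved in the same libraries, and its part in this difference was not tested.

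Of the 739 regions with a peak in both Tet2-KI ESC libraries, 254 (34.4%, interval 30.9 to 37.9) had none in Tet2deltaRBD-KI ESC, against 35.6% of all regions, which lies within that interval. In the other direction 33 of 263 (12.5%, interval 8.80 to 17.2) lacked a peak in Tet2-KI ESC, against 15.8% of all regions, 26 of 163 on the 5′ side (16.0%, interval 10.7 to 22.5) and 7 of 100 on the 3′ side (7%, interval 2.86 to 13.9), which overlap. These shares rest on single libraries. Without Tet2deltaRBD-KI ESC replicate 1 they were 69.1% (66.9% of all regions) and 45.9% (49.2%), and without its replicate 2 they were 39.2% (40.1%) and 22.4% (30.3%). Without Tet2-KI ESC replicate 1 they were 50.2% (55.4%) and 20.9% (26.9%), and without its replicate 2 they were 64.3% (69.3%) and 18.6% (26.4%). Among the 254, those with a peak in most of the other libraries were Mphosph8 (a subunit of the HUSH silencing complex) and Mdn1 (an ATPase of ribosome assembly), with 8 of the other 9 libraries each, and Terf1 (a telomere protein of shelterin, on both sides of exon 9) and Ccar1 (a coactivator of cell cycle and apoptosis genes), with 7 each. At Ccar1 the summit lay in the intron in all 9 libraries that had a peak. It lay there in 7 of 10 at Mphosph8 and 5 of 10 at Mdn1. At Terf1 it lay there in 4 of 9 on the 3′ side and 2 of 9 on the 5′ side, and elsewhere in the others. Among the 33, the leading ones were Cpne1 and Ctbp2 (a transcriptional corepressor), each with 3 of the other 9 libraries, and Kpna2 (an importin alpha) and Sbno1, with 2 each.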

How the data were processed

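Per the study's methods, reads of low complexity (AfterQC) and reads that mapped to rRNA or tRNA (Bowtie2) were discarded, and the remainder was trimmed with Trimmomatic and aligned with STAR to mm9 and RefSeq transcripts. The authors called the peaks of every IP with MACS2 at a q-value below 0.05, its own input serving as control, and cut them to 100 bp on either side of the summit. The deposited fold enrichment, a ratio of IP to input, is in 9 lists, and the 4 knock-in lists hold positions only. Tool versions are not given in the sources used here. Depth is unknown, so precision rests on the spread between libraries.

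Summits were classified with GENCODE M1 on mm9, leaving out those in an exon of another coding gene. Python 3.11.15, numpy 2.4.6, pandas 2.3.3, scipy 1.17.1 and pysam 0.24.0 were used, and the code was tested on simulated data. Tests were two-sided exact permutation tests over relabelled libraries, or sign flips within libraries. Named were the 6 regions per side with a peak in most libraries (ties by mean fold enrichment), up to 8 regions with a peak in every WT ESC and no TKO ESC or WT EB library, up to 4 or 5 with a peak in every library of another group and none of the group it was compared with, by lowest fold enrichment or, for the knock-ins, by number of other libraries, the 8 genes with most regions, and genes of fixed lists, of which some are not reported here. Tandem repeats were units of 1 to 4 nt repeated over 18 nt or more, or 20 nt for 4-nt units. Members, gene lists and rules were chosen with earlier results of these data known. Among 78 pairs of lists, at most 1.97% of intervals were identical. Alternatives were tried for the distance limit, annotation, strength, batch, overlap rule and each library.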

Additional observations from a re-analysis of the deposited data

How the results depend on the processing

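Of 364 alternative values, 326 kept their direction and their side of the threshold, or moved little. With a limit of 100 bp, the difference in 5′ share between WT ESC and TKO ESC turned to -0.36 percentage points, and that in splice-side share between Tet2-KI ESC and Tet2deltaRBD-KI ESC to 0.53. The excess in fold enrichment of the 5′ over the 3′ side was 0.0451 on the log2 scale with exons of all transcripts (exact permutation p = 0.0547) and 0.0182 with the stronger peaks of each list alone, those above its median (exact permutation p = 0.445), and spanned 0.0486 to 0.0679 when single libraries were left out. With those stronger peaks, 22.1% of WT ESC regions (15 of 68) had no peak in TKO ESC. The share was 14.8% for TKO ESC regions without a peak in WT ESC (4 of 27) and 0% for WT EB regions without one in WT ESC (0 of 6). In the 1703 batch these shares were 23.4%, 23.5% and 28.2%. Counting only splice-side summits as presence gave 41.4% for Tet2-KI ESC regions without a peak in Tet2deltaRBD-KI ESC and 18.6% for the reverse. Why these shares moved was not tested, beyond the smaller number of libraries or peaks by construction.

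Leaving out single libraries, the log2 difference in peak number spanned -0.31 to 1.05 for WT ESC against TKO ESC, negative without TKO ESC replicate 1, and -0.14 to 1.69 for WT ESC against WT EB, negative without WT EB replicate 1. Shares of regions without a peak spanned 20.2% to 25.2% (WT ESC regions in TKO ESC), 27.7% to 35.9% (WT ESC in WT EB), 5.69% to 22.5% (TKO ESC in WT ESC), 9.09% to 26.4% (WT EB in WT ESC), 39.2% to 69.1% (Tet2-KI ESC in Tet2deltaRBD-KI ESC) and 18.6% to 45.9% (the reverse). Deviations of same-numbered libraries correlated at 0.01 to 0.22, not above 0.1 in every pair, so the numbers were not taken as pairs, although same-numbered libraries in part share a batch prefix (WT ESC and TKO ESC replicate 1, at 0.22, are both 1608). With the number as a replicate block, the exact permutation p of the WT ESC against TKO ESC difference in splice-side share (-6.17 percentage points) was 0.25, the smallest possible for 3 pairs, and no call changed. The share over intronic peaks, chosen after seeing the data, differed by -12.6, -24.4 and -5.47 percentage points in the 3 comparisons.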
